A study of Rattus norvegicus with 6 samples.

Results

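The cytosolic ribosomal protein genes of rat atrial fibroblasts were compared between cells transfected with si-GPD1L, a small interfering RNA named for glycerol-3-phosphate dehydrogenase 1-like, and cells transfected with si-NC, the negative control. Of the 40154 genes in the table, 85 belonged to the set, 52 of the large and 33 of the small ribosomal subunit. They were taken by name, as protein-coding genes whose symbol is Rpl or Rps with a number. At most 1 letter (a, x, y or l) and 1 digit could follow, so the paralog Rpl36al fell outside. Rplp0, Rplp1, Rplp2 and Rpsa were added, and the Rps6k kinases were left out. The atrial fibroblasts came from Sprague-Dawley rats 1 to 3 days old, were separated from myocytes by their faster adhesion to the dish, and were collected 24 h after transfection. Each group had 3 libraries of polyadenylated RNA, every sample carries the treatment label "Atrial differentiation", and no untransfected cells were among the samples analysed. The labels do not say whether the digit in a sample name counts replicates or different siRNAs, nor whether the samples of a group came from separate cultures or animals, so the p-values measure only the spread between these samples, which may be technical.

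A ribosome joins a small subunit, which reads the mRNA, to a large subunit, which forms the peptide bond and holds the exit tunnel of the new protein. Each subunit is built from ribosomal RNA and a set of small proteins that are needed in equal amounts. In mammals the mRNAs of these proteins are short and abundant, and most begin with a C followed by a tract of pyrimidines, the 5′ terminal oligopyrimidine motif, through which mTOR signalling and the RNA-binding protein Larp1 control their translation and stability.

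The start sites are shown because the pyrimidine tract is what these mRNAs are known to share and was not used to choose the genes. RefSeq promoters of the GRCr8 assembly were matched by symbol for 67 of the 85 genes, with 68 entries. The windows below run from 15 bases before to 15 bases from the annotated start on the strand of the gene, and capitals mark a run of at least 5 pyrimidines that covers the start. The first 6 genes are those lower in si-GPD1L that had an entry, followed by Rpl22l1, which had the lowest log2 fold change, and by Rplp0 and Rps2, the most abundant gene of each subunit.
Rps28 (chr7:15311319-15311348, minus strand): gcatcccctgctcacgtgactcctctccgc
Rps21 (chr3:187724023-187724052, plus strand): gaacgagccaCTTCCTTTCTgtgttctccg
Rpl23 (chr10:83272170-83272199, minus strand): actaacttcctttctgactctttccggacg
Rpl9 (chr14:43247575-43247604, plus strand): gacgaaggacgTTCTCTCTTTgccccatct
Rpl39 (chrX:121195882-121195911, minus strand): tcttctaatcgcgTTCTTCCggcctgtcct
Rpl37 (chr2:55942930-55942959, plus strand): tggtaggcgtaCTTTCTCTTCCggtctctt
Rpl22l1 (chr2:113683181-113683210, plus strand): gctccgtggatatccggttccgagttgcgc
Rplp0 (chr12:46718376-46718405, minus strand): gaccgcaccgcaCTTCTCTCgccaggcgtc
Rps2 (chr10:14251833-14251862, plus strand): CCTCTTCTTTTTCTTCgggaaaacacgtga
A run of at least 5 pyrimidines covered the start in 40 of the 68 entries, or 58.8%, against 12.0% of all 33469 promoters in the table. A start at C followed by 4 more bases that were C or T was found in 24 entries, or 35.3%, against 2.63% of all promoters. Among the 62 tested genes with an entry, the median log2 fold change was -0.23 in the 38 with the run and -0.22 in the 24 without it. Rps28 and Rpl23, which were lower in si-GPD1L, had no run over the annotated start, whereas Rplp0 and Rps2, which were not called, had one. The run of Rps2 ended at the start base, so Rps2 had no start at C followed by 4 more pyrimidines. Elsewhere in their windows, Rps28 and Rpl23 held runs of 9 and 10 pyrimidines. The match is one of letters at an annotated start, and the start used in these cells was not measured.

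The targeted gene was the first check of the labels. Gpd1l had 262, 332 and 313 normalised counts in si-NC, against 220, 208 and 302 for the libraries labelled si-GPD1L, of which the last lay within the si-NC range (log2 fold change -0.31, SE 0.15, adjusted p = 0.234, edgeR's quasi-likelihood test). Library totals ran from 16892255 to 20149732 counts. All 12 fibroblast markers were detected, with a summed share of 7.08% to 8.63% in si-NC against 8.09% to 8.54% in si-GPD1L. Of them 3 (Dcn, Lum and S100a4) were lower in si-GPD1L at an adjusted p under 0.05, against 2.33% of all genes tested. The 12 endothelial markers, none at 0 in all libraries, had a summed share of 0.0109% to 0.0134% in si-NC against 0.0151% to 0.0156% in si-GPD1L. Of 11 tested, 5 were higher at that threshold, against 4.03% of all genes. The 10 cardiomyocyte markers summed to 0.199% to 0.210% against 0.183% to 0.198%, and the 12 macrophage markers to 0.0159% to 0.0171% against 0.0135% to 0.0194%. By edgeR's quasi-likelihood test 0 of either list were called. By the same test 4 cardiomyocyte markers and 1 macrophage marker had an unadjusted p under 0.05, against 22.4% of all genes. Of 8 smooth muscle markers, at 0.105% to 0.118% against 0.111% to 0.118%, 1 was lower and 2 were higher, against 2.33% and 4.03% of all genes. The part of other cell types in the results below was not tested.

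Ribosomal protein mRNA was among the most abundant in these cells. The 85 genes took 5.16%, 4.41% and 4.06% of the counts in si-NC replicates 1, 2 and 3, and 4.01%, 3.92% and 3.79% in the si-GPD1L libraries. The si-NC mean of 4.54% ± 0.56 thus stood against a si-GPD1L mean of 3.91% ± 0.11 (SD, n = 3 each). All 3 si-GPD1L libraries lay below the si-NC libraries, but the lowest si-NC library and the highest si-GPD1L library were close together, and si-NC replicate 1 lay far above the rest. On the TPM scale, which divides by gene length, the set took 13.9% to 16.1% of the total in si-NC, against 13.3% to 13.9% for si-GPD1L.

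The subunits moved together. Counts of large subunit genes were 1.46, 1.49 and 1.51 times those of small subunit genes in si-NC and 1.50, 1.50 and 1.49 times in si-GPD1L. In bulk RNA, fewer cells of a type and less RNA per cell cannot be told apart, so these shares describe the culture as a whole.

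Of the 85 genes, 79 passed the filter on low counts, 47 of the large and 32 of the small subunit. Rpl35a, Rpl8, Rplp2, Rpl3l, Rpl30l1 and Rps9 did not pass, and their rows held at most 7 counts in any library. Of the 79 tested genes, 77 had a log2 fold change below 0, against 50.9% of all 14852 genes tested. The median log2 fold change was -0.23 over the large subunit genes, where it ranged from -0.55 for Rpl22l1 to 0.07 for Rpl10l. Over the small subunit genes it was -0.24, with a range from -0.51 for Rps28 to -0.06 for Rps2. All genes tested had a median of -0.00 and a lower quartile of -0.15.

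At an adjusted p-value under 0.05, 7 of the 79 genes were lower in si-GPD1L, or 8.86%, against 2.33% of all genes tested. Of these, 4 were large subunit genes and 3 were small subunit genes, and 0 of the set were called higher, against 4.03% of all genes, by this test or by any other tool or setting run. None passed the threshold of the study's methods, which adds an absolute log2 fold change over 1 and was passed by 1.62% of all genes. At an unadjusted p-value under 0.05, 48 of the 79 genes were lower, against 11.0% of all genes, and 0 were higher. The libraries of the groups did not overlap for 47 genes, 29 of the large and 18 of the small subunit, and in each of them si-GPD1L was the lower group. Over all genes tested, 13.9% were lower without overlap.

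**Figure D1:**
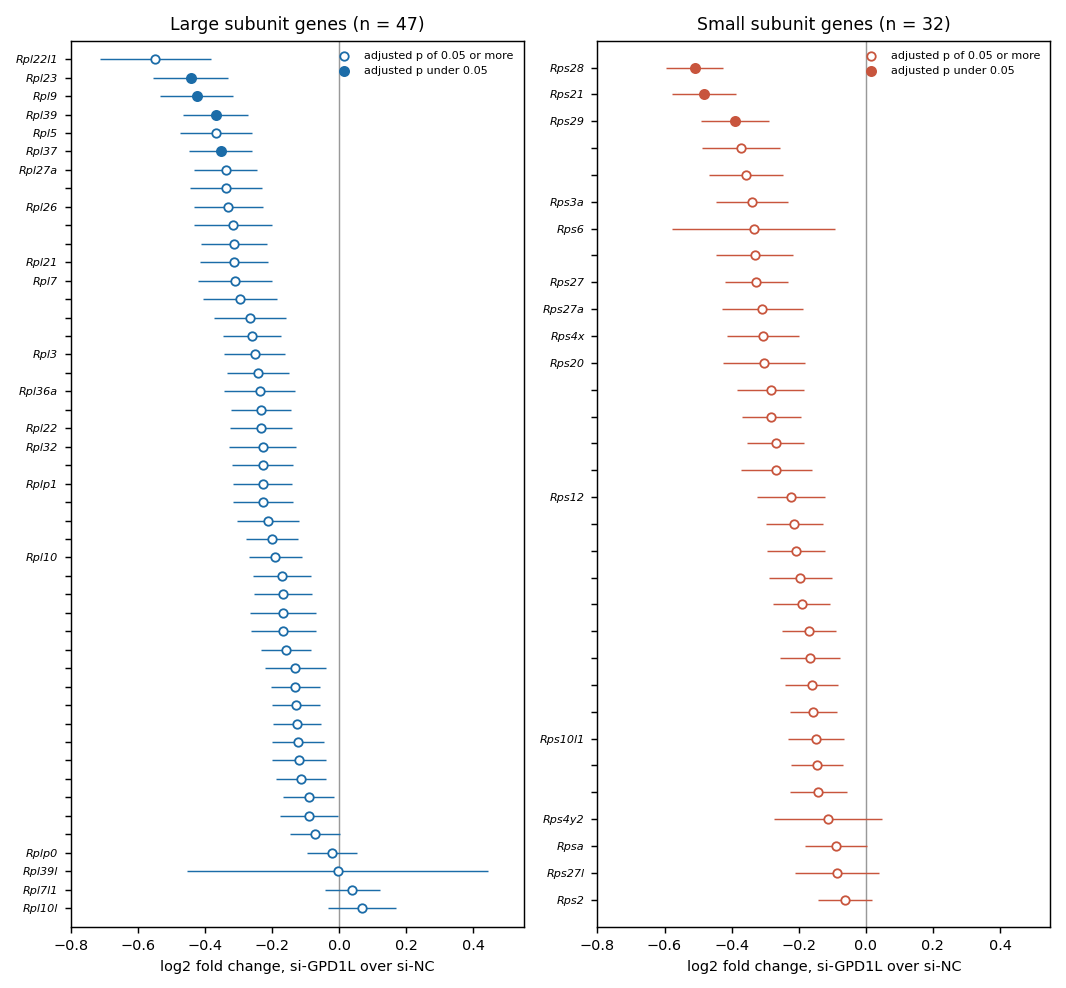
Log2 fold change of si-GPD1L over si-NC for each of the 47 large (left) and 32 small (right) subunit genes tested, ordered by size, with bars of 1 SE from edgeR's quasi-likelihood fit. Genes described in the text are named, and filled points are the 7 genes with an adjusted p under 0.05, and all but Rpl7l1 and Rpl10l lie below 0.

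The count of called genes rested on single libraries. Without si-NC replicate 1 the quasi-likelihood test called 19 genes lower, 10 of the large and 9 of the small subunit and all 7 of the genes above among them, against 4.41% of all genes tested. The median over the set then shrank from -0.23 to -0.13, with 73 of 79 genes below 0. Without si-NC replicate 3 it called 39, against 4.21% of all genes. Without si-NC replicate 2 it called 2 (1.15% of all genes), without si-GPD1L replicate 1 or 2 it called 1 (0.442% and 0.351%), and without si-GPD1L replicate 3 it called 2 (1.19%). The direction of the medians was the same in each of these 6 fits. Other tools moved the count too, with 22 called by DESeq2's Wald test (3.31% of all genes), 17 by edgeR's exact test (4.41%) and 33 when genes were kept from 1 count upward (3.51%). It was 7 with DESeq2 size factors (2.37%), 7 with at least 10 counts asked of every library (2.27%) and 8 with upper-quartile factors (3.06%).

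Small subunit genes held the strongest call. Rps28, at chr7:18682071-18683440 on the minus strand of rn6, encodes a protein of the head of the small subunit. It had 3859, 3550 and 3169 normalised counts in si-NC and 2655, 2422 and 2351 in si-GPD1L. Every si-GPD1L library lay well below every si-NC library, and Rps28 was the only gene of the set called in all 15 other settings that were fitted. The log2 fold change was -0.51 (SE 0.085, adjusted p = 0.00314, edgeR's quasi-likelihood test), a level of 70.2% of si-NC.

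Rps21, at chr3:175629176-175630198 on the plus strand, encodes another protein of the small subunit. It had 3996, 3499 and 2972 normalised counts in si-NC and 2425, 2516 and 2549 in si-GPD1L. The si-GPD1L libraries were close to each other, while the si-NC libraries were spread over a wider range and did not reach them. The log2 fold change was -0.48 (SE 0.096, adjusted p = 0.0105, edgeR's quasi-likelihood test), and it was called in 13 of the 15 other settings.

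Rps29, at chr6:91455333-91456709 on the minus strand, encodes a zinc-binding protein of the small subunit head. It had 4673, 3934 and 3428 normalised counts in si-NC and 3241, 2986 and 2951 in si-GPD1L. The lowest si-NC library and the highest si-GPD1L library nearly met. The log2 fold change was -0.39 (SE 0.10, adjusted p = 0.0402, edgeR's quasi-likelihood test), and without si-NC replicate 1 it was -0.27.

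Among large subunit genes, Rpl23 lies at chr10:85721398-85725359 on the minus strand, and its protein sits at the face that meets the small subunit. It had 12348, 9890 and 8581 normalised counts in si-NC and 7793, 7345 and 7543 in si-GPD1L. The groups did not overlap, and si-NC replicate 1 was at 133.7% of the mean of the other si-NC libraries. The log2 fold change was -0.44 (SE 0.11, adjusted p = 0.0367, edgeR's quasi-likelihood test).

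Rpl9, at chr14:44524419-44527613 on the plus strand, behaved much like Rpl23 from library to library. It had 12772, 10098 and 9152 normalised counts in si-NC and 8314, 7829 and 7712 in si-GPD1L. Again si-NC replicate 1 was the highest by a wide margin. The log2 fold change was -0.42 (SE 0.11, adjusted p = 0.0378, edgeR's quasi-likelihood test).

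Rpl39 and Rpl37 encode short proteins near the exit tunnel of the large subunit. Rpl39, at chrX:123705241-123707257 on the minus strand, had 2059, 1624 and 1582 normalised counts in si-NC and 1421, 1314 and 1346 in si-GPD1L. Rpl37, at chr2:54832634-54834587 on the plus strand, had 4121, 3541 and 3149 in si-NC and 2980, 2814 and 2670 in si-GPD1L. In both genes the groups did not overlap, but the gap between them was smaller than the range of the si-NC libraries. The log2 fold changes were -0.37 (SE 0.097, adjusted p = 0.0434) for Rpl39 and -0.35 (SE 0.094, adjusted p = 0.0457) for Rpl37, both by edgeR's quasi-likelihood test. Each was called in 10 of the 15 other settings.

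**Figure D2:**
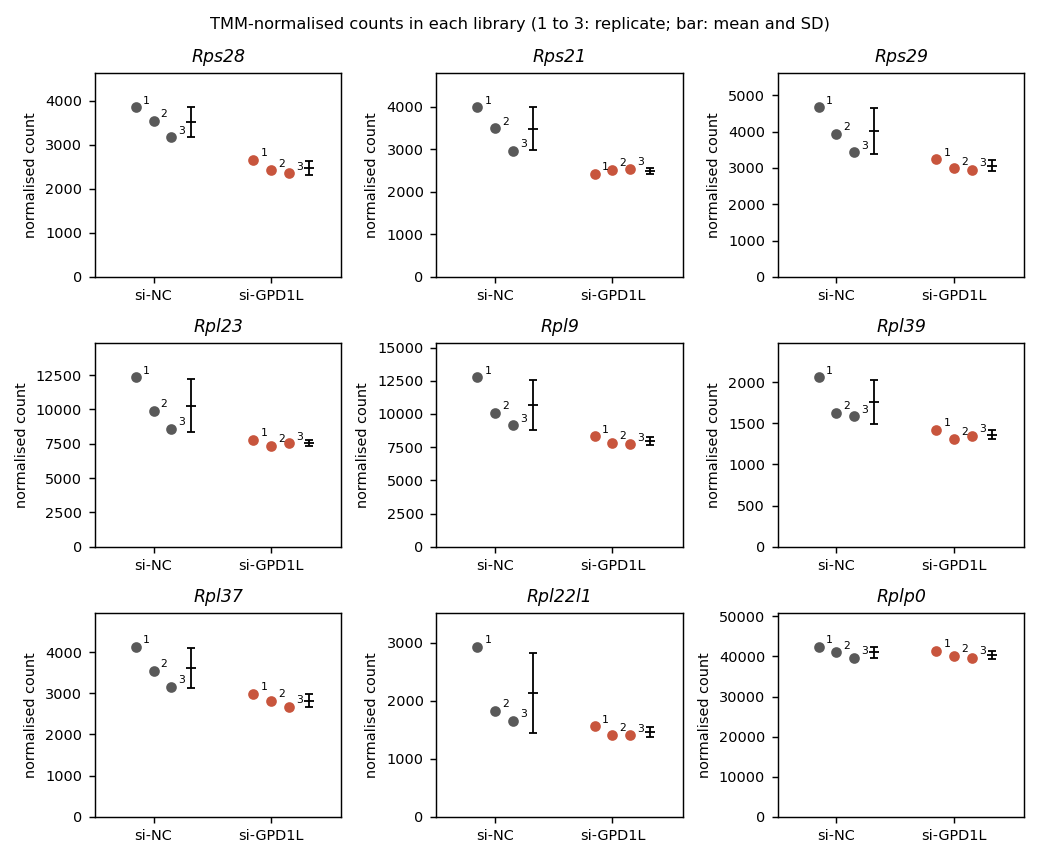
TMM-normalised counts of the 7 genes lower in si-GPD1L, of Rpl22l1 and of Rplp0 in each library, with the replicate number beside each point and the mean and SD of the group as a bar (n = 3). In the first 8 genes every si-GPD1L library lies below every si-NC library and si-NC replicate 1 is the highest, whereas Rplp0 lies between 39616 and 42344 in all 6.

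The most abundant genes of the set were not those that differed most. Rplp0, whose protein anchors the stalk that recruits elongation factors to the large subunit, had the highest mean level at 4908 TPM. It had 42344, 41039 and 39674 normalised counts in si-NC and 41493, 40218 and 39616 in si-GPD1L, which overlapped throughout. Its log2 fold change was -0.02 (SE 0.074), with a 95% interval from -0.18 to 0.14. Its partner in the stalk, Rplp1, had 6649, 5861 and 5252 normalised counts in si-NC and 5202, 5055 and 4911 in si-GPD1L (log2 fold change -0.23, SE 0.088, adjusted p = 0.146, edgeR's quasi-likelihood test). The groups of Rplp1 did not overlap, although the lowest si-NC library was close to the highest si-GPD1L library.

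Rps2 followed Rplp0 at a mean of 4447 TPM, with a log2 fold change of -0.06 (SE 0.081). Rpsa, also known as the laminin receptor precursor, had a mean of 3180 TPM and a log2 fold change of -0.09 (SE 0.092). Without si-NC replicate 1, the log2 fold changes of Rplp0 and Rpsa were 0.0022 and 0.0019. By contrast, other abundant genes were further below 0 without passing the adjusted threshold. Rps3a had 31052, 24819 and 22329 normalised counts in si-NC and 20529, 20260 and 20996 in si-GPD1L (log2 fold change -0.34, SE 0.11, adjusted p = 0.0811, edgeR's quasi-likelihood test). Rpl21 and Rpl32 were at -0.31 (SE 0.10) and -0.23 (SE 0.10).

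Levels on the TPM scale, which can be compared between genes, ranged over the tested genes from 3.11 for Rpl39l to 4908 for Rplp0. Of the 79 genes, 71 were above 500 TPM. The median was 1766 TPM in the large and 1793 TPM in the small subunit. The 8 genes below 500 TPM were Rpl22l1, Rps27l, Rps10l1, Rpl7l1, Rpl10l, Rps4y2, Rps6 and Rpl39l, and of these only Rps6 is not named as a paralog. By mean TPM 72 of the 79 genes were lower in si-GPD1L, with a median log2 ratio of -0.14 in the large and -0.15 in the small subunit, where the median over all genes tested was shifted to 0.08 on this scale. In TPM, every si-GPD1L library lay below every si-NC library for 34 genes, against 7.64% of all genes tested. For Rplp0 and Rpl10l every si-GPD1L library lay above every si-NC library. Rplp0 was at 4799 ± 106 TPM in si-NC and 5017 ± 95.1 TPM in si-GPD1L (SD, n = 3), a difference in the direction of the shift of all genes.

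Paralogs of ribosomal proteins, which can take the place of the usual protein in some tissues, were mostly lower in level than their partners. Rpl22l1, the paralog of Rpl22, had 2927, 1827 and 1651 normalised counts in si-NC and 1563, 1411 and 1406 in si-GPD1L. Its si-NC replicate 1 was at 168.3% of the mean of the other si-NC libraries, and the rest of the libraries were much closer together. The log2 fold change was -0.55 (SE 0.17, adjusted p = 0.069, edgeR's quasi-likelihood test), the lowest of the set but not called. Without that library it was -0.25 and called (adjusted p = 0.0143, edgeR's quasi-likelihood test). Rpl22 itself was at -0.23 (SE 0.092).

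Rps27 and its paralog Rps27l, known in other cells as a p53 target, showed different values. Rps27 had a log2 fold change of -0.33 (SE 0.095) and Rps27l of -0.09 (SE 0.12), and the difference between them was not tested. Rps27l was at 0.11 without si-NC replicate 1. Rpl7l1 and Rpl10l were the only genes of the set above 0, at 0.04 (SE 0.083) and 0.07 (SE 0.10), against -0.31 (SE 0.11) for Rpl7 and -0.19 (SE 0.080) for Rpl10. Rpl10l, a gene best known from the testis, had 241 to 276 normalised counts, and Rpl7l1 had 2094 to 2534.

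Rps4x was at -0.31 (SE 0.11) and Rps4y2, which had 134 to 205 normalised counts, at -0.11 (SE 0.16). Rpl3 was at -0.25 (SE 0.090), while its striated muscle paralog Rpl3l had at most 1 count in any library. Rpl39l had 7 to 18 counts, and its log2 fold change of -0.00 had an SE of 0.45, so no difference of ordinary size was detectable at this depth. Rps27a, which is made as a fusion with ubiquitin, was at -0.31 (SE 0.12). Rpl26 was at -0.33 (SE 0.10), with no Rpl26l1 row used here.

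For some genes the row with the usual symbol did not hold most of the reads. The table has 1526 other rows described as the same ribosomal protein as one of 76 members, 1357 of them pseudogenes and 827 at 0 counts in every library. For 76 of the 85 genes these copies held at most 5% of the reads summed over the gene and its copies. Members described as like or Y-linked paralogs, such as Rpl10l, Rps10l1 and Rps4y2, were not searched for copies and are counted there at 0%. For 6 they held over 50%. Rpl35a had no read in any library, while LOC100359498, described as the same protein, had 15373 over the 6 libraries. Rpl8 had 1 read against 79554 for LOC100360117, and Rplp2, the other acidic stalk gene, had 1 to 7 counts a library against 34756 in all for LOC498555.

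The copies of Rps9 and Rps6 held far fewer reads than those of Rpl8, Rplp2 and Rpl35a. Rps9 had 0 to 2 counts a library, and its copies held 2088 over the 6 libraries. Rps6, whose protein is the classical substrate of the ribosomal S6 kinases downstream of mTOR, had 32 to 62 counts a library, and its copies held 2054 over the 6 libraries, or 87.5% of the sum. For Rps12 the copies held 56.8%, most of them in LOC100361933. How reads were divided among near-identical sequences was not tested, and these rows are uncertain as levels of the mRNA. Rps19 has 2 rows that carry an identifier after the symbol, fell outside the naming rule, and had 105 to 234 counts a library.

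The copies differed among themselves. LOC100359498 was lower in si-GPD1L (log2 fold change -0.38, SE 0.095, adjusted p = 0.035, edgeR's quasi-likelihood test). The copies of Rpl8 and Rplp2 were at -0.04 (SE 0.074) and 0.01 (SE 0.074). With the counts of all copies added to their gene, an alternative chosen after the data were seen, 83 of the 85 genes were tested and 80 were below 0. The medians were then -0.23 and -0.21 in the large and small subunit. The 7 genes called before and Rpl35a were called lower, against 2.38% of all genes tested.

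**Figure D3:**
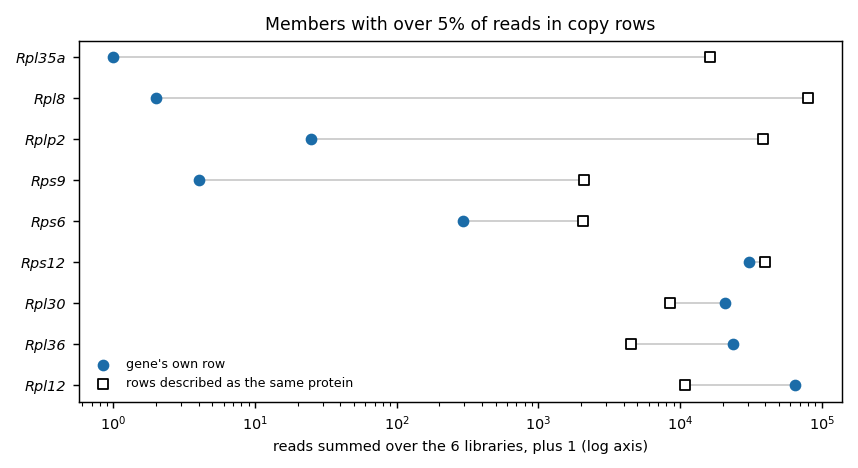
Reads summed over the 6 libraries, plus 1, on a log axis, for the 9 genes with over 5% of their reads in rows described as the same protein. Circles are the row with the usual symbol and squares the copies; for Rpl35a, Rpl8, Rplp2, Rps9, Rps6 and Rps12 the square lies to the right of the circle.

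Ribosomal protein mRNAs are short, and other short genes as a class also had values below 0. The tested members had a median length of 621 bases, from 296 for Rpl39 to 2507 for Rpl7l1, against 2996 bases over all genes tested. Of the 79, 65 were shorter than 1000 bases and all 65 were below 0, with a median log2 fold change of -0.23. The 1097 other genes under 1000 bases had a median of -0.13, and 69.6% of them were below 0. Among other genes the median ran from -0.18 under 500 bases to 0.08 at 7000 bases and more. The 14 members of 1000 bases or more had a median of -0.21, with 12 below 0. Pearson's r of log2 fold change and log2 length was 0.41 over the 79 members and 0.11 over all genes, as a description across genes that share the same 6 libraries.

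When each library's length trend was removed before the test, the members' distance from 0 shrank. The medians were then -0.06 in the large and -0.07 in the small subunit, with 36 of 47 and 24 of 32 genes below 0, or 60 of 79 in all. Of the 1254 genes called, 6 were members, all lower, against 3.44% of all genes called lower. These were Rps28 at -0.29, Rps21 at -0.26, Rpl23 at -0.25 and Rpl9 at -0.27, called in both fits, and Rpl5 at -0.27 and Rpl27a at -0.24, named because this fit called them. Rps29, Rpl39 and Rpl37, the shortest of the 7 together with Rps28 and Rps21, were at -0.16, -0.13 and -0.14 and were no longer called.

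**Figure D4:**
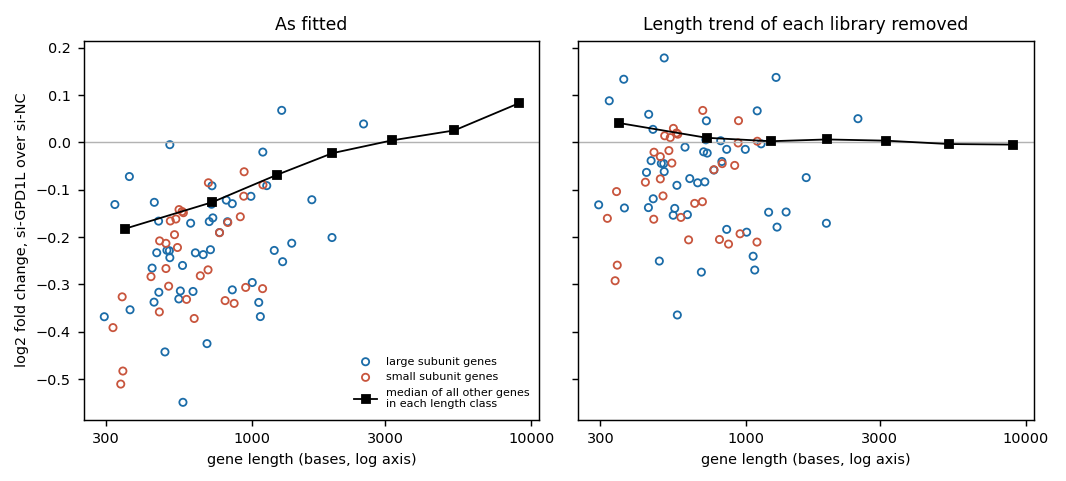
Log2 fold change of si-GPD1L over si-NC against gene length on a log axis for the 79 tested members, with squares for the median of all other genes in 7 length classes, before (left) and after (right) the trend of each library on length was removed. On the left the medians climb from -0.18 to 0.08 and most members lie below them, and on the right the medians stay between -0.00 and 0.04 while 60 of 79 members lie below 0.

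Rpl5, which forms a particle with 5S ribosomal RNA, had 21846, 17379 and 15788 normalised counts in si-NC and 14574, 14101 and 13959 in si-GPD1L. The groups did not overlap, and si-NC replicate 1 was again the highest library. Its log2 fold change without the length step was -0.37 (SE 0.11, adjusted p = 0.0609, edgeR's quasi-likelihood test). At 1071 bases it was longer than most members. Rpl27a, at 1057 bases, was at -0.34 (SE 0.094, adjusted p = 0.0523, edgeR's quasi-likelihood test) without that step.

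The spread among libraries was uneven between the groups. The median SD of log2 normalised counts over the 79 members was 0.18 in si-NC and 0.047 in si-GPD1L, and 71 of the 79 had the larger SD in si-NC. Over all genes tested the medians were 0.15 and 0.099, with the larger SD in si-NC for 65.9%. Among the 3660 genes with a mean of at least 1000 normalised counts they were 0.11 and 0.051, with 78.9% larger in si-NC. Other short genes were spread more than the members in both groups. Under 500 bases the medians of other genes were 0.27 in si-NC and 0.18 in si-GPD1L, against 0.21 and 0.057 for members. From 500 to 1000 bases they were 0.22 and 0.14, against 0.17 and 0.041 for members. These length classes were not matched for count level. With the length trend removed the members' medians were 0.073 and 0.032, and 65 of 79 had the larger SD in si-NC.

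Si-NC replicate 1 stood above the other libraries for nearly the whole set. Of the 79 members, 76 had their highest normalised count in si-NC replicate 1, against 28.8% of all genes. The lowest was in si-GPD1L replicate 3 for 58 members, a count for which the share of all genes was not computed. The median deviation from the mean of the 6 libraries, on the log2 scale, was 0.31, 0.087 and -0.047 in si-NC replicates 1, 2 and 3 and -0.068, -0.12 and -0.15 in si-GPD1L. The other genes under 1000 bases moved with the members, at 0.19, 0.056 and -0.049 in si-NC and -0.040, -0.059 and -0.077 in si-GPD1L. A member's count in si-NC replicate 1 was at a median of 119.8% of the mean of the other si-NC libraries, from 102.6% to 196.2%. With the length trend removed the members' deviations were 0.10, 0.025 and 0.0013 in si-NC and -0.023, -0.041 and -0.048 in si-GPD1L. The cause of the difference between the si-NC libraries was not tested.

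**Figure D5:**
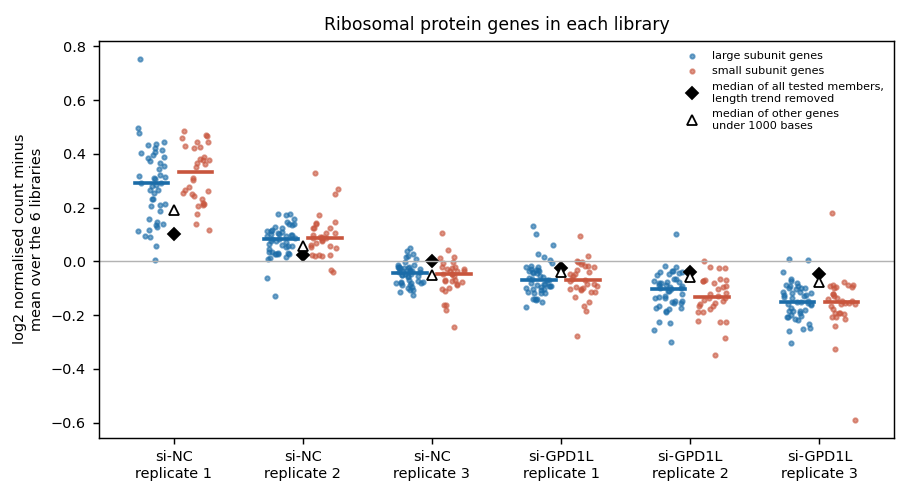
Log2 normalised count of each tested member minus its mean over the 6 libraries, by library, with a line at the median of each subunit; Rpl39l, with under 30 counts, is left out. Si-NC replicate 1 lies highest at medians near 0.3, and the diamonds (members after the length trend was removed) and triangles (other genes under 1000 bases) follow the same order of libraries in si-NC over a smaller range.

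The biological coefficient of variation of edgeR removes the group means and counting error and is drawn towards the trend of genes with like counts. It had a median of 0.0879 over the members, against 0.0872 for the trend at the same counts and 0.0905 over all genes tested. The value was above the trend in 46 and below it in 33 members. The 5 largest values belonged to Rpl39l (0.239), Rps6 (0.153), Rpl22l1 (0.143), Rps4y2 (0.122) and Rps20 (0.113). Of these Rpl39l, Rps6 and Rps4y2 had few counts. Rps20 had 15644, 12675 and 10279 normalised counts in si-NC and 10838, 10366 and 10069 in si-GPD1L, so that si-NC replicate 3 lay inside the range of si-GPD1L.

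Genes that work with the ribosome were read beside the set from 4 lists. Translation factors deliver tRNAs, select the start codon and bind the cap. Of 38 tested, 25 were below 0, with a median of -0.07, and 1 was called against 6.36% of all genes in either direction. Without si-NC replicate 1, 7 were called, against 10.1% of all genes in that fit. With all libraries the called gene was Eef1b2, an exchange factor of elongation factor 1, with 7348, 6298 and 6035 normalised counts in si-NC and 5138, 4780 and 4966 in si-GPD1L. The groups were apart, and the log2 fold change was -0.40 (SE 0.084, adjusted p = 0.0141, edgeR's quasi-likelihood test). Larp1, which binds the terminal oligopyrimidine motif, had 4825, 5911 and 6087 normalised counts in si-NC and 6752, 6905 and 6783 in si-GPD1L. It was thus higher in each si-GPD1L library but not called (log2 fold change 0.28, SE 0.089, adjusted p = 0.0823, edgeR's quasi-likelihood test). With the length trend removed it was called at 0.24 (adjusted p = 0.0444, the same test). Eif4b and Eif1, of the initiation machinery, were at -0.23 (SE 0.068) and -0.24 (SE 0.074).

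Proteins bound to the ribosome and fusion partners of ribosomal proteins lay closest to the set. All 9 tested were below 0, with a median of -0.21. The 1 called, against 2.33% of all genes lower, was Rpl36al, a paralog of Rpl36a that fell outside the naming rule of the set. It had 1574, 1443 and 1285 normalised counts in si-NC and 1152, 1083 and 1097 in si-GPD1L. Its log2 fold change was -0.37 (SE 0.082, adjusted p = 0.0208, edgeR's quasi-likelihood test), and Rpl36a was at -0.24 (SE 0.11). Npm1, a nucleolar chaperone of ribosome assembly, had 17571, 11741 and 10857 normalised counts in si-NC and 9991, 10130 and 9919 in si-GPD1L. As in Rpl22l1, si-NC replicate 1 stood far above the rest, and the log2 fold change of -0.42 (SE 0.14) was not called. Tpt1 and Naca, whose mRNAs also carry the pyrimidine tract, were at -0.25 (SE 0.093) and -0.24 (SE 0.093).

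Ribosome assembly factors, which process ribosomal RNA and build the subunits in the nucleolus, had values on both sides of 0. Of 46 tested, 30 were above and 16 below 0, with a median of 0.09. By edgeR's quasi-likelihood test 1 was called higher, or 2.17%, against 4.03% of all genes, and 0 were called lower, against 2.33%. The called gene was Rrp12, a factor for the export of pre-ribosomes, with 642, 677 and 729 normalised counts in si-NC and 903, 894 and 843 in si-GPD1L. Every si-GPD1L library was above every si-NC library (log2 fold change 0.37, SE 0.079, adjusted p = 0.0165, edgeR's quasi-likelihood test). Bop1 was at 0.26 (SE 0.074), Mybbp1a at 0.24 (SE 0.070) and Polr1a, the largest subunit of RNA polymerase I, at 0.31 (SE 0.097), none of them called. At an unadjusted p under 0.05, 10 were higher and 2 lower, against 11.4% and 11.0% of all genes. Without si-NC replicate 1, 8 were called, all higher, against 5.67% of all genes, and the median of the list was 0.12. Their median length was 2290.5 bases, and their median log2 fold change was 0.08 after the length trend was removed. The difference between the lists was not tested.

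Mitochondrial ribosomal proteins, which serve the separate ribosomes of mitochondria and lack the pyrimidine tract as a class, were the last of the lists. Of 73 tested, 51 were below 0, against 50.9% of all genes, with a median of -0.10. Of these 3 were called lower, or 4.11%, against 2.33% of all genes. Mrpl34 had 217, 207 and 203 normalised counts in si-NC and 144, 141 and 164 in si-GPD1L (log2 fold change -0.49, SE 0.12, adjusted p = 0.0316, edgeR's quasi-likelihood test). Mrpl33 was at -0.45 (SE 0.12) and Mrps33 at -0.47 (SE 0.13). Mrps17 was at -0.39 (SE 0.12) and was not called. After the length trend was removed the median of the list was -0.02, with 39 of 73 below 0. The 3 genes were then no longer called, and Mrpl43, Mrpl49 and Mrps34, named because that fit called them, were higher at 0.33, 0.48 and 0.32, where 5.0% of all genes were called higher.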

How the data were processed

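Polyadenylated RNA of 3 si-NC and 3 si-GPD1L samples was sequenced as paired reads of 150 bases. Per the submitters' processing notes, which name bcl2fastq, HISAT2 2.1.0, HTSeq 0.12.4 and rn6, the authors deposited raw read counts per gene. The authors also deposited TPM, in which each count is divided by gene length and scaled to the library. The strand setting, the handling of reads with several matches and the annotation release are not given in the sources used here. The authors' own comparison (pseudo-counts, log2 fold changes, p-values and q-values), the transcript table and the enrichment tables were not used.

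Groups were taken from the sample titles. Counts were filtered with filterByExpr, scaled by TMM and compared with glmQLFit and glmQLFTest of edgeR 4.0.16 in R 4.3.3, and p-values were adjusted by Benjamini-Hochberg over 14852 genes. Normalised counts are counts divided by the effective library size and brought to a common library size, log2 values used a prior count of 2, and intervals are 95%. For the length step, a loess curve (span 0.5) of each library on log gene length entered the fit as an offset. TPM served for levels between genes, without a test. Promoter windows came from RefSeq (GRCr8) and gene coordinates from the file (rn6). Each test was first tested on simulated data with the same dispersion for all genes. The simulation had no length trend and no outlying library, so it was simpler than these data. Alternatives were DESeq2 1.42.0 size factors and Wald test, upper-quartile factors, edgeR's exact test, filters at 1 count in all and at 10 counts in every library, the replicate number as a block, the length step, and each library left out. The sum over copies was chosen after the data were seen.

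The members, the companion and marker lists and the tests were chosen with earlier results of these data known. Genes were named if called, if among the 5 highest or lowest log2 fold changes, among the 3 highest or 2 lowest TPM of a subunit or the 5 largest dispersions, as paralog pairs, as stalk genes or Rpsa, or as the up to 4 smallest adjusted p of a companion list. The tables and plots used numpy 2.4.6, pandas 2.3.3 and matplotlib 3.10.9. Some genes that this rule would name are not reported here.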

Additional observations from a re-analysis of the deposited data

How the results depend on the processing

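The medians of both subunits stayed below 0 in all 15 other settings. When each library was left out they ran from -0.31 to -0.12 in the large and from -0.32 to -0.14 in the small subunit. With the length trend removed they were closer to 0, at -0.06 in the large and -0.07 in the small subunit, and 6 genes were called lower. The number of genes called lower did not hold. It was 7, and 22 with DESeq2's Wald test, 17 with edgeR's exact test, 33 with genes kept from 1 count upward, and 1 to 39 when each library was left out (19 without si-NC replicate 1 and 39 without si-NC replicate 3). Deviations of same-numbered samples correlated at -0.012, -0.0059 and 0.043, against -0.044 to 0.048 for samples with different numbers, so no pairing by number was seen. Whether same-numbered samples were prepared together is not given by the labels. With the number as a replicate block 12 were called lower, against 2.43% of all genes, and not every sample correlated best with its own number. Calls among translation factors numbered 4 with the Wald test, 5 with the length trend removed, 9 with genes kept from 1 count and 2 with upper-quartile factors, and 0 to 7 when each library was left out. Calls among assembly factors numbered 5 with the exact test, 3 with the length trend removed and 5 with genes kept from 1 count (0 to 8 leaving out libraries). Among mitochondrial ribosomal proteins they numbered 5 with the exact test and 7 with genes kept from 1 count (0 to 5), and among partners and fusions 4 with genes kept from 1 count (0 to 3). These counts for the lists hold calls in both directions. Of all genes, the Wald test called 3.31% lower, the exact test 4.41%, genes kept from 1 count 3.51% and upper-quartile factors 3.06%. The length step called 3.44% lower and 5.0% higher, and fits without 1 library called 0.351% to 4.41% lower. The counts are not read as results about the lists. The cause of the shifts in these counts was not tested.

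The share of the library taken by the set differed by -0.64 percentage points, si-GPD1L minus si-NC, by counts (-0.88 to -0.33 leaving out libraries) and -1.39 by TPM. The spread within groups was 0.0879 as edgeR's coefficient of variation. As the SD pooled over both groups and put on the natural log scale it was 0.0929, and 0.0408 with the length trend removed. Genes near 0 changed sign. With the length trend removed Rplp0 was at 0.067, Rps2 at 0.046, Rps27l at 0.067, Rpsa at 0.0024 and Rpl39l at 0.18. Rpl39l was also at 0.0073 with the Wald test and at 0.020 with the replicate block. When each library was left out, Rpl39l ran from -0.41 to 0.39, Rplp0 from -0.045 to 0.0022, Rps27l from -0.22 to 0.11, Rpsa from -0.16 to 0.0019, Rpl7l1 from -0.016 to 0.13 and Rps4y2 from -0.24 to 0.023. Of 734 values of named genes under the alternatives, 593 kept their direction and their side of the threshold. With 3 libraries a group and few reads on rows such as Rpl39l and Rps6, differences of ordinary size were not detectable there.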
